A study of Mus musculus with 14 samples.

Results

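The C/EBP transcription factor genes Cebpa, Cebpb, Cebpd, and Cebpg are 4 of 21853 protein-coding genes, taken by name, and every peak in the gene body or within 100 kb of it was collected in 12 ChIP-seq peak lists, 218 peaks in all. CRTC2, the cAMP-regulated coactivator of CREB, was listed at the Cebpd promoter with each treatment (promoters run from 1000 bp before to 100 bp after a start site). At the promoters of Cebpb and Cebpg it was listed only in the TNFα libraries, and at none of the 4 in untreated cells. Of all genes, 11.8% had a CRTC2 promoter peak in control, and 27.4%, 39.9%, and 29.1% with forskolin, TNFα, and both. No peak of p65, the transactivating subunit of NF-κB, was listed at the 4 promoters, where 0.0915% to 1.01% of all genes had one, so that most sets of 4 genes would hold none. The strongest p65 peak of each library, and the strongest CRTC2 peak of each forskolin library, lay away from the genes. Around Cebpd with forskolin alone, however, the strongest CRTC2 peak was at the start site. With TNFα alone the strongest CRTC2 peak was at the Cebpd start site. A region 88.6 kb downstream of Cebpb carried CRTC2 at 97.3 and 112.2 normalized tags (tags scaled to 10000000 per library) with forskolin, and p65 in all 4 libraries. The Cebpd start site carried CRTC2 with each treatment, and H3AcK27 around that gene covered more ground with forskolin. Cebpa had no peak of any kind over its start site.

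The material was 3T3-L1, mouse preadipocytes that can be turned into adipocytes in culture, at 4 days of differentiation. Cultures were untreated (control) or received 10 µM forskolin (FSK, an activator of adenylyl cyclase), TNFα, or FSK with TNFα for 1 h, and all groups share the line and the differentiation. Each of the 3 targets (CRTC2, p65, and H3AcK27, the acetylated lysine of histone H3 that marks active promoters and enhancers) has 1 library per treatment, so treatments are compared without replicates and without tests. The comparison asks where cAMP and TNFα signals meet on adipocyte chromatin.

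C/EBP proteins are basic leucine zipper factors that bind DNA as dimers with one another. In adipocyte differentiation C/EBPβ and C/EBPδ come early and are followed by C/EBPα, which together with PPARγ keeps up the expression of fat cell genes; C/EBPβ and C/EBPδ are also induced by cytokines and by cAMP. C/EBPγ lacks a transactivation domain of its own and acts as a partner for other members.

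Library size ranged from 9832884 tags (H3AcK27 with FSK, the shallowest) to 31807394 (CRTC2 with FSK and TNFα). CRTC2 lists held 5188 to 19527 peaks, p65 lists 214 to 4221, and H3AcK27 lists 38684 to 52321 regions. The control and TNFα lists were called against the untreated input and both FSK lists against the FSK input, and the share of H3AcK27 tags in regions followed that split, with 64.9% and 66.7% against 48.5% and 50.9%. The part of the input and of depth in any difference between those pairs cannot be told apart from FSK itself. Over the members the median input density in H3AcK27 regions was 0.780 to 1.35 times that of all regions.

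These markers did not settle the adipocyte label. Of 6 adipocyte markers, Adipoq, Plin1, and Cidec had no H3AcK27 region at the promoter in any library, while Fabp4, Lpl, and Pparg had one in each. That was 50% of the markers, close to the share of all genes. Of all genes, 51.7%, 47%, 51.4%, and 49.1% had one in control, FSK, TNFα, and both. Summed over the list, H3AcK27 was 224 to 558 normalized tags, and the 4 preadipocyte markers summed to 840 to 1352, nearly all of it at Pdgfra. The 4 macrophage markers summed to 0 to 197, with Adgre1, Ptprc, and Itgam at 0, and the 3 endothelial markers to 0 to 42.6, with Tek at 0. The share of cells that had completed differentiation was not tested.

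A peak that is not listed fell under the calling thresholds, and the lowest listed values were 3.02 to 4.87 in the CRTC2 lists and 2.81 to 4.15 in the p65 lists. The intervals are 95% exact binomial intervals. They cover counting error only and take each tag as independent, so repeated tags can make them too narrow. H3AcK27 has no count by positions here. For CRTC2 and p65 the same comparison is also given by distinct tag positions, where each position counts once: peaks around these genes held a median of 2.33 tags per position for CRTC2 and 3.87 for p65, close to 2.30 and 3.89 over all peaks.

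**Figure D1:**
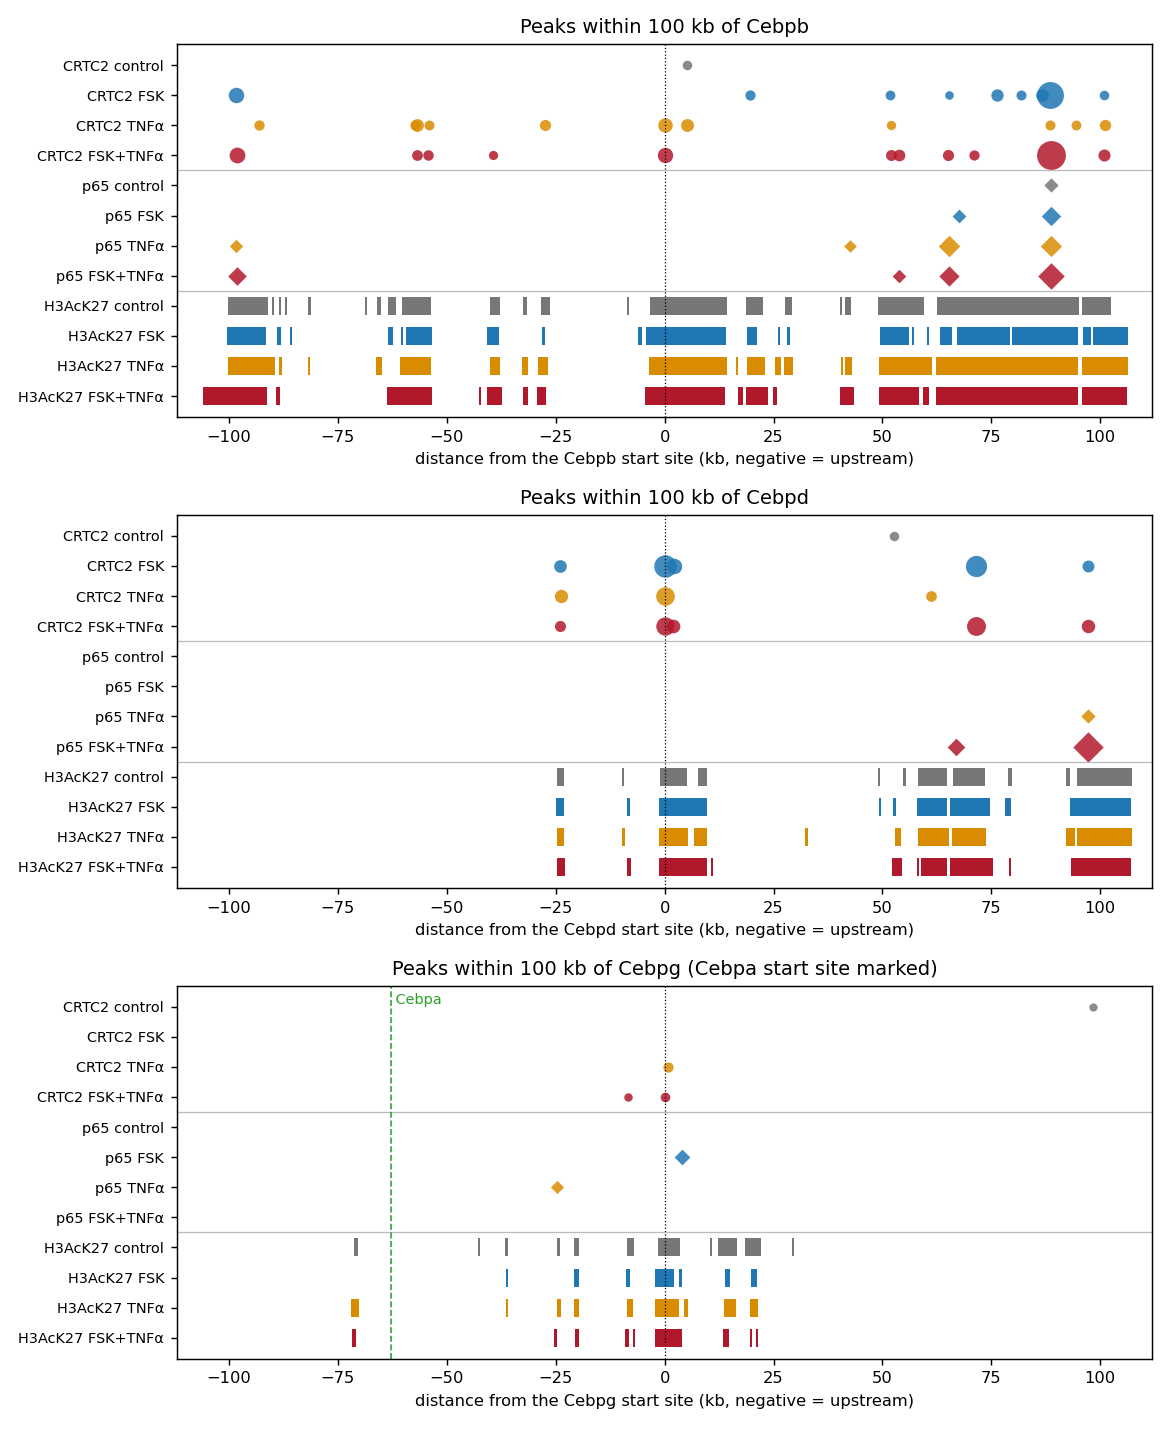
Peaks of the 12 lists around Cebpb, Cebpd, and Cebpg, by distance from the start site in kb (1 row per target and treatment; circles are CRTC2, diamonds p65, with area rising with normalized tags; bars are H3AcK27 regions to scale). With FSK alone most CRTC2 peaks around Cebpb lie downstream, and with TNFα they lie on both sides. A CRTC2 peak sits at the Cebpd start site in each treated row, and the dashed line at Cebpa crosses no region.

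CRTC2 peaks around the 4 genes numbered 3 in control, 14 with FSK, 15 with TNFα, and 18 with both. For p65 the numbers were 1, 3, 6, and 6, and for H3AcK27 43, 37, 37, and 35. Of all protein-coding genes, 50.4%, 70.6%, 78.4%, and 74.4% had a CRTC2 peak within 100 kb in those libraries, 3.17%, 25.5%, 22.8%, and 33.6% had a p65 peak, and 86.1%, 84.9%, 86.1%, and 85.5% had an H3AcK27 region. Joined by overlap across the 8 CRTC2 and p65 lists, the peaks formed 39 loci, of which 24 lay nearest to Cebpb, 9 to Cebpd, 6 to Cebpg, and none to Cebpa. CRTC2 was listed at 34 of them, p65 at 10, and both, in any library, at 5. A single library listed 26 of the loci, and those are the least certain. H3AcK27 covered the midpoint of 34 loci in all 4 libraries. A lower signal in these cultures can come from fewer cells with the protein or mark, or from less of it per cell, and the 2 cannot be told apart. In each of the treated libraries all CRTC2 loci lay in an H3AcK27 region of the same treatment (14 of 14, 15 of 15, and 18 of 18), where 74.0% to 82.6% of all CRTC2 peaks did. In control 1 of 3 did, against 59.2% of all CRTC2 peaks.

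Cebpb (ENSMUSG00000056501, chr2:167688915-167690418, plus strand, 1 exon, GRCm38) encodes C/EBPβ. It had 1 CRTC2 peak within 100 kb in control, 9 with FSK, 11 with TNFα, and 11 with both. Fewer CRTC2 peaks than that were found for 95.1%, 90.4%, and 97.7% of genes in the 3 treated libraries. At the promoter, CRTC2 was not listed in control or with FSK, and was listed with TNFα at 25.7 normalized tags and with both at 29.2. Those 2 libraries differed 1.14-fold (interval 0.824 to 1.58). The Cebpb promoter thus belonged to the 5.23% of genes with a CRTC2 promoter peak in both TNFα libraries only. The peak did not cover the start site and began 0.043 kb past it with TNFα and 0.01 kb past it with both. A second peak 5.04 kb downstream, in an intron of the lincRNA gene A530013C23Rik, was listed in control at 9.0 and with TNFα at 19.6.

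The sequence before the Cebpb start site is shown because the CRTC2 peak of the combined treatment begins 10 bases past it. In the sequences printed here, from RefSeq (GRCm38.p6) or from the GRCm38 genome, capitals mark exact matches on either strand to the CRE core TGACG, the AP1 motifs TGACTCA and TGAGTCA, the C/EBP motif TTGCNNAA, or the NF-κB motif, GGAAA or GGAAT followed directly by TTCCC. The full CRE, TGACGTCA, contains the core on both strands. RefSeq promoters were found for 3 of the 4 genes.
Cebpb promoter, 250 bases before the start site: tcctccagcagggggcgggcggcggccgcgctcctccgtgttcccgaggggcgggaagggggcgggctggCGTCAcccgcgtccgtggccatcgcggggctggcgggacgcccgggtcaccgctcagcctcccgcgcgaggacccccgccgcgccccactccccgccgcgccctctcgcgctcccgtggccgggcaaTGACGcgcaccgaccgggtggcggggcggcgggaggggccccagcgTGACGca
The Cebpb stretch, chr2:167688665-167688914, held 3 CRE cores, which began 180, 53, and 7 bases before the start site. These cores lie outside the CRTC2 peaks, and the central 200 bp of the CRTC2 locus itself held none of the motifs. A core was present in the 250 upstream bases of 17.8% of 32851 RefSeq promoters.

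H3AcK27 lay over Cebpb as a single region of 17.6 to 18.3 kb in each library, the 164th widest of 52321 in control and the 41st of 38684 with FSK. Its density was 105 normalized tags per kb in control, 114 with FSK, 123 with TNFα, and 120 with both, against medians of 64.0 to 72.1 over start sites with a region. Control was the lowest of the 4, as it was for the medians. Summed over the regions that touch the span joined across libraries, the log2 ratio to control was 0.17 with FSK (interval 0.10 to 0.25), 0.26 with TNFα (0.21 to 0.31), and 0.25 with both (0.20 to 0.31). All genes with a region moved by medians of -0.21, 0.13, and -0.01 in these comparisons, so Cebpb stood at the 81.3, 68.0, and 73.6 percentiles of them. Per kb of region the percentiles were 56.3, 70.8, and 58.2. The joined span was chosen as a measure after seeing the data. No member reached 2-fold in either direction, which 1.5% (higher) and 7.6% (lower) of genes did with FSK, 1.34% and 0.77% with TNFα, and 2.3% and 4.93% with both.

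The highest CRTC2 and p65 values near Cebpb were found 88.6 kb downstream of its start site. The place, chr2:167777359-167777740, lies over the first exon of the lincRNA gene Gm14321 (chr2:167777467-167782569, plus strand). The next start of a protein-coding transcript was that of Tmem189, 116 kb away, while a non-coding transcript of Tmem189 begins within the Cebpb gene. CRTC2 there was not listed in control. It stood at 97.3 normalized tags with FSK, 10.6 with TNFα, and 112.2 with both, which placed the peak 34th of 11749, 8986th of 19527, and 20th of 14171 by score. Both FSK libraries were high and the TNFα library was low. The value with both treatments was 10.6-fold that with TNFα alone (interval 7.22 to 16.2; by positions 8.32-fold, 4.59 to 16.6), and 6133 CRTC2 peaks listed in both libraries had a median log2 ratio of -0.46 against 3.40 here. At least a 2-fold excess was found for 2.49% of those peaks. Between both treatments and FSK alone the ratio was 1.15 (0.954 to 1.40) by tags and 0.747 (0.560 to 1.00) by positions, so these 2 libraries had no settled order.

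p65 at the same place was listed in all 4 libraries, at 10.6 normalized tags in control, 22.5 with FSK, 27.9 with TNFα, and 45.4 with both. Control was lowest and the combined treatment highest. By score this was the second strongest of 214 p65 peaks in control, and with both treatments it ranked 14th of 4221. The ratio of both treatments to control was 4.28 by tags (2.79 to 6.81) and 2.01 by positions (1.07 to 3.86). The ratios to control of FSK alone and of TNFα alone turned with the way of counting: they were 2.12 and 2.63 by tags, and 0.768 (0.346 to 1.66) and 0.930 (0.451 to 1.91) by positions. Only 6 or 7 p65 peaks were shared with control, and the share of them at least 2-fold higher by tags was 66.7% with FSK and 100% in each TNFα library.

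The bases covered by the CRTC2 and p65 peaks of the combined treatment are shown because the motifs in them lie apart, each within the peaks of 1 factor.
Cebpb distal region, plus strand: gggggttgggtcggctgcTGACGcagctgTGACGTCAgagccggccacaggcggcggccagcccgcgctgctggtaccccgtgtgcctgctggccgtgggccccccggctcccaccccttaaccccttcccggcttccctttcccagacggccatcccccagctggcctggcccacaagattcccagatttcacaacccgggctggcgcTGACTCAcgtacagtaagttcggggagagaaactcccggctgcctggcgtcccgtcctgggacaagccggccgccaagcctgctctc
In this stretch, chr2:167777445-167777740, a full CRE follows a CRE core at the left end. The core lay 0 bp from the centre of the CRTC2 peak with FSK and 61 bp from that with both treatments. The AP1 match lay 1 bp from the centre of the p65 peak in control, 2 bp with FSK and with both, and 57 bp with TNFα. A full CRE was present in the central 200 bp of 2.95% of CRTC2 peaks of the combined treatment, and an AP1 motif in 8.84% of its p65 peaks. No NF-κB match was found.

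This region sat in one of the widest H3AcK27 domains of the lists. In control 1 region of 32.6 kb spanned it, the 20th widest of 52321, and with both treatments 1 region of 32.6 kb, the 8th widest of 42227. With FSK alone the same ground was listed as 3 regions covering 29.8 kb. Summed over that ground, H3AcK27 was 3613 normalized tags in control, 3644 with FSK, 4474 with TNFα, and 4591 with both. Relative to control the sum was 1.01 with FSK (0.970 to 1.05), 1.24 with TNFα (1.21 to 1.27), and 1.27 with both (1.24 to 1.31). Per kb covered, H3AcK27 was 111, 122, 138, and 141 normalized tags in the same order, and control was the lowest. After subtraction of the medians of start sites given above, the log2 ratios of the sums were 0.22 with FSK, 0.18 with TNFα, and 0.36 with both, so the order of FSK and TNFα turned with the scaling.

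CRTC2 and p65 overlapped in the same library at 5 loci near the 4 genes, all of them with FSK and TNFα together, of 476 such loci in that library. Within 100 kb, 6.67% of genes had one, and Cebpb had 4 of the 5. By the sum of its ranks in both lists the Cebpb distal region was the first of the 476. The locus 98.3 kb upstream of Cebpb, in an intron of the processed transcript Gm11476 and 41.3 kb from the start site of Ube2v1, was the 31st. CRTC2 there was 29.8 with FSK and 31.1 with both and was not listed in the others, and p65 was 8.92 with TNFα and 20.5 with both. The locus 65.2 kb downstream was the 240th and carried p65 at 28.6 with TNFα and 24.9 with both, with CRTC2 at 6.69 with FSK and 13.8 with both. The fourth, 53.8 kb downstream, was listed with both treatments alone, at 15.4 for CRTC2 and 9.27 for p65. In control, with FSK, and with TNFα no overlapping pair was found near the 4 genes, while 0.0778%, 1.32%, and 2.42% of genes had one. For the Cebpb distal region this rests on few bases, since both factors were listed there with FSK and with TNFα and the p65 peak began 33 and 4 bp past the end of the CRTC2 peak.

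The 65.2 kb locus is shown because its p65 peaks are centred near a C/EBP motif. Its bases, chr2:167753968-167754182, lie in no annotated gene.
Cebpb 65.2 kb locus, plus strand: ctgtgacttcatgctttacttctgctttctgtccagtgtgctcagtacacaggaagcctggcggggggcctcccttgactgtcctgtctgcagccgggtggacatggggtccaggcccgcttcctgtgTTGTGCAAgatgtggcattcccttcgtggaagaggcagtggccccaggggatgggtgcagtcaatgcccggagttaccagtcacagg
The match lay 1.5 bp from the centre of the p65 peak with both treatments and 18.5 bp from that with TNFα. The motif was present in 13.1% and 12.1% of the p65 peaks of these lists.

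At the other loci on the Cebpb side CRTC2 stayed below 25.7, the lower of its values at the promoter. Some of them exceeded CRTC2 at the 53.8 and 65.2 kb loci. With FSK alone CRTC2 was 17.6 at 76.3 kb and 18.9 at 86.6 kb downstream. CRTC2 at 51.9 kb downstream was listed with all 3 treatments at 8.31 to 13.2, and the locus at 100.9 kb at 9.13 with FSK and 16.7 with both. Loci 54.2 to 57.3 kb upstream lay in or next to Ube2v1, and the one at 56.9 kb was at that gene's own start site (0.014 kb), with CRTC2 at 19.3 with TNFα and 12.6 with both.

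**Figure D2:**
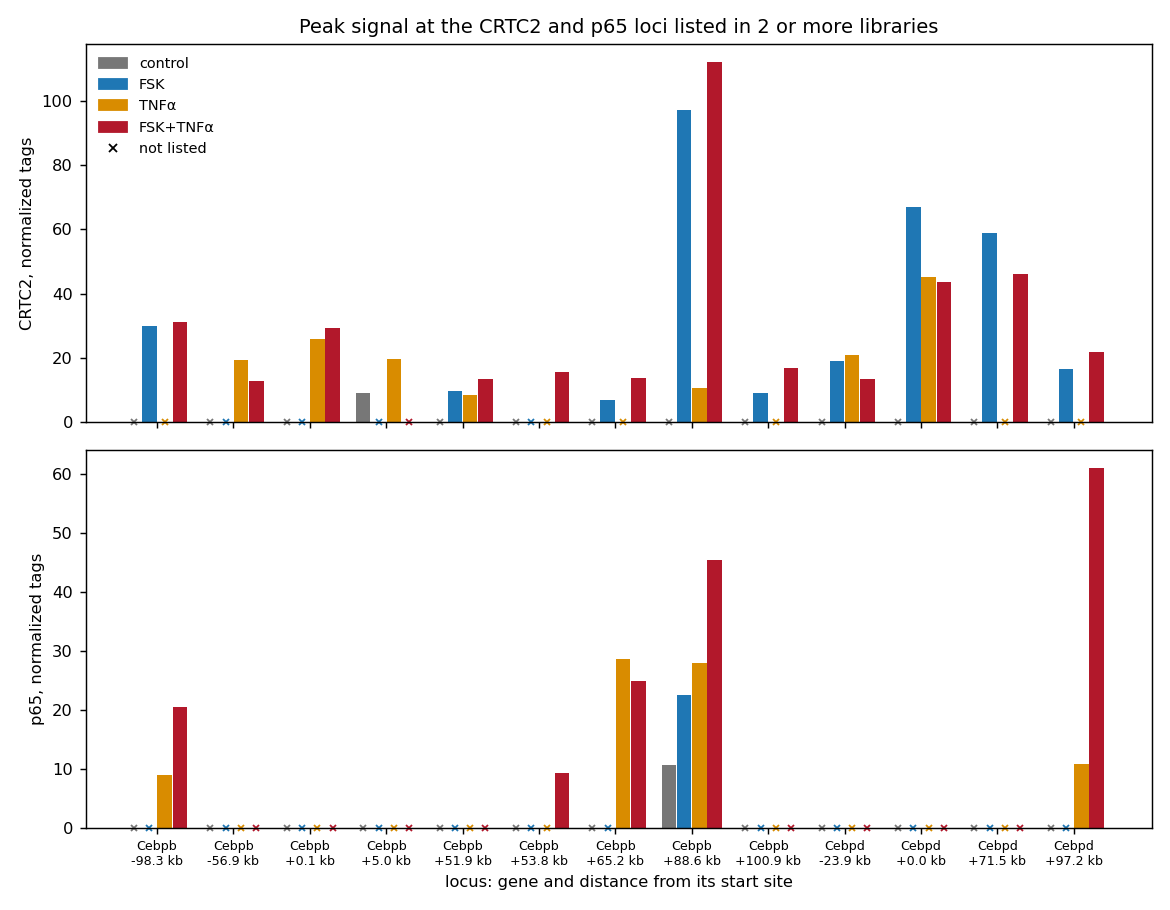
Normalized tags in the CRTC2 peak (top) and p65 peak (bottom) at each Cebpb or Cebpd locus listed in at least 2 libraries, by treatment (1 library per bar, no error bars; crosses mark libraries where no peak was listed). CRTC2 at Cebpb +88.6 kb reaches 97.3 and 112.2 in the FSK libraries, and p65 at Cebpd +97.2 kb reaches 61 with both treatments.

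Cebpd (ENSMUSG00000071637, chr16:15887286-15891031, plus strand) encodes C/EBPδ and its end overlaps the end of Spidr on the other strand. CRTC2 at its start site was not listed in control and stood at 66.9 normalized tags with FSK, 45.0 with TNFα, and 43.7 with both. A CRTC2 promoter peak in all 3 treated libraries and not in control was found for 12.5% of genes. FSK alone gave the highest value, 1.49-fold that with TNFα (1.14 to 1.95; by positions 2.08-fold, 1.36 to 3.21) and 1.53-fold that with both (1.18 to 1.98; by positions 1.94-fold, 1.30 to 2.89). TNFα alone and both treatments did not separate (0.971, interval 0.756 to 1.25). A further CRTC2 peak 1.87 to 2.25 kb into the gene was listed with FSK at 29.8 and with both at 22.6, at places that did not overlap. A locus 23.9 kb upstream, 0.042 kb from the start site of Mzt2, had CRTC2 at 18.9, 20.8, and 13.5 in the 3 treated libraries.

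Downstream of Cebpd, within introns of Spidr, CRTC2 71.5 kb from the start site was 59.0 with FSK and 46.2 with both and was not listed in control or with TNFα. At 97.2 kb CRTC2 was 16.4 with FSK and 21.7 with both, and p65 was 10.8 with TNFα and 61 with both. The p65 ratio of both treatments to TNFα alone was 5.65 by tags (3.75 to 8.80) and 2.74 by positions (1.32 to 5.98). By tags it stood at the 99.6 percentile of 272 p65 peaks listed in both libraries, of which 18.4% were at least 2-fold higher. With both treatments this p65 peak was the 18th of 4221. Another p65 peak, at 66.9 kb, was listed with both treatments alone at 18.1.

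The bases covered by the peaks of the combined treatment at 97.2 kb, chr16:15984369-15984596, are shown because both factors were listed there.
Cebpd 97.2 kb locus, CRTC2 and p65, plus strand: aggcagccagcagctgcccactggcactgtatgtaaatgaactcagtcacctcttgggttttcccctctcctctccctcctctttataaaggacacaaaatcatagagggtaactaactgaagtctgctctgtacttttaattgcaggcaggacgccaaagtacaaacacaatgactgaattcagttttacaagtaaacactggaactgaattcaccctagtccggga
This stretch held none of the motifs searched.

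H3AcK27 over the Cebpd start site was listed as 6.37 kb in control, 11 kb with FSK, 6.81 kb with TNFα, and 11.1 kb with both. The region was wide in both FSK libraries, where the adjoining region of the other libraries was joined to it. Density within the region was 114, 108, 143, and 110 normalized tags per kb in the same order, highest with TNFα. Over the regions that touch the joined span of 11.1 kb the sums were 782, 1184, 1044, and 1230, and the length covered was 8.41, 11, 9.86, and 11.1 kb. The log2 ratio to control was 0.60 with FSK (0.49 to 0.70), 0.42 with TNFα (0.34 to 0.50), and 0.65 with both (0.57 to 0.73), at the 95.5, 83.7, and 93.2 percentiles of genes. Per kb of region, the ratios to control were instead -0.09, 0.33, and -0.05, at the 31.9, 81.7, and 31.5 percentiles. The region listed with FSK was thus wider but not denser than in control, and the sum depends on the width called in each library.

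The distal Cebpd domains moved in the same direction as its promoter span. Around the 71.5 kb locus H3AcK27 summed to 810 normalized tags in control, 1257 with FSK, 1043 with TNFα, and 1190 with both, and control was the lowest. Around the 97.2 kb locus the sums were 1138, 1818, 1671, and 1892. With FSK these domains were 1.55-fold (1.45 to 1.66) and 1.60-fold (1.51 to 1.69) their control, and here density was higher too, at 139 against 108 and 129 against 83.8 normalized tags per kb.

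**Figure D3:**
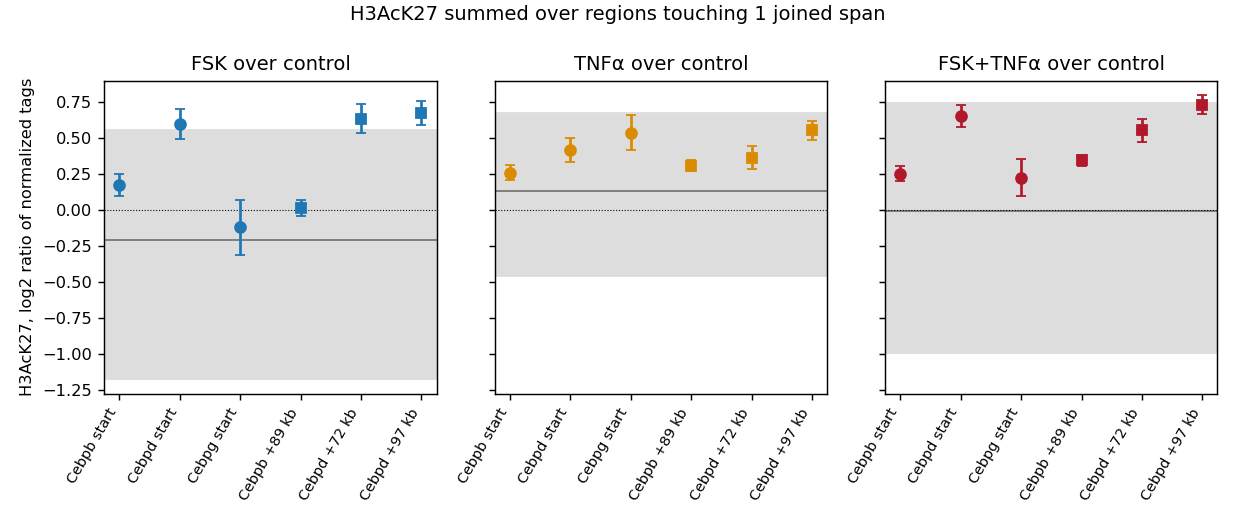
Log2 ratio of H3AcK27 tags to control, summed over all called regions that touch 1 joined span (the length covered differs between libraries), for 3 start sites (circles) and 3 distal domains (squares), with exact 95% counting intervals; 1 library per treatment. Grey bands hold the middle 90% of start sites, with their median as a line; the Cebpd points lie above the Cebpb points in each panel.

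Cebpg (ENSMUSG00000056216, chr7:35046422-35056573, minus strand) encodes C/EBPγ, and its start site lies 62.7 kb from that of Cebpa, so the windows of the 2 genes share nearly all their peaks. CRTC2 was listed near the start site with TNFα at 11 normalized tags and with both at 9.43, at places 0.791 and 0.048 kb into the gene that did not overlap. The first of these lies at the second of 2 annotated start sites. A p65 peak 4.08 kb into the gene, with FSK alone, stood at 13.6. H3AcK27 density at the start site was 68.2, 67.3, 88.8, and 64.7 normalized tags per kb in control, FSK, TNFα, and both, highest with TNFα. The log2 ratio of TNFα to control was 0.38 (0.26 to 0.50), at the 86.6 percentile of 9739 genes, and with both it was -0.07 (-0.20 to 0.06). Summed over the regions that touch the joined span, these ratios were 0.54 (0.42 to 0.66) and 0.22 (0.09 to 0.35), so the sign with both treatments turned with the measure. The Cebpg promoter held none of the motifs.

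Cebpa (ENSMUSG00000034957, chr7:35119293-35121928, plus strand) encodes C/EBPα. No CRTC2, p65, or H3AcK27 peak covered its start site in any library, as was the case for the H3AcK27 promoter of 46.7% of genes. The nearest H3AcK27 regions lay 19.8 to 37.4 kb upstream and, in 3 of the libraries, 7.44 to 8.06 kb downstream of the start site. Those downstream regions stood at 28.3 normalized tags in control, 39.0 with TNFα, and 21 with both. With FSK, the shallowest H3AcK27 library, the gap without acetylation ran over 141 kb, and none of the regions within 100 kb was on the downstream side. Every CRTC2 or p65 peak in the Cebpa window lay closer to Cebpg. The 250 bases before the Cebpa start site, chr7:35119043-35119292, are shown for comparison with those of Cebpb. They held no exact match to the motifs, while the Cebpb stretch held CRE cores. Sites that differ from the exact motifs were not searched.
Cebpa promoter, 250 bases before the start site: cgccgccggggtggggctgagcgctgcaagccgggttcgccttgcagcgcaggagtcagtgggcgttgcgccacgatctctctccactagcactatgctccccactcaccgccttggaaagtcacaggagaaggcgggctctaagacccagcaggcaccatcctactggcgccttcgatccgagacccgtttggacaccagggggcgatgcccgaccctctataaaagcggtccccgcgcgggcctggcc
The GC content of this stretch was 66.4%, and that of the Cebpb stretch 81.6%.

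Over 38 of the 39 loci, leaving out the Cebpd start site, 8 held a CRE core in their central 200 bp, 4 an AP1 motif, 5 a C/EBP motif, and none an NF-κB motif. A CRE core was present in 14.7% to 26.3% of the peaks of the CRTC2 lists, an AP1 motif in 3.68% to 14.5%, and a C/EBP motif in 6.72% to 11.3%. In the p65 lists a CRE core was present in 5.39% to 6.28% and an AP1 motif in 2.80% to 9.28%. A C/EBP motif was present there in 9.35% to 13.1% and an NF-κB motif in 0.27% to 2.2%.

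The lists of genes around the family were read at the promoter. Of the 3 further genes listed with the family by name, Cebpz and Ddit3 had CRTC2 in all 4 libraries and Cebpe in none. A promoter CRTC2 peak was listed for 11.8%, 27.4%, 39.9%, and 29.1% of all genes in control, FSK, TNFα, and both. Ddit3, which encodes the stress-induced C/EBP partner CHOP, stood at 22.2 normalized tags in control, 60.2 with FSK, 102.7 with TNFα, and 54.4 with both, and was lowest in control. Cebpz stood at 10.6, 28.6, 32.9, and 29.2. Both were named after their values were seen.

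Of 18 regulators of C/EBP genes, 4 had a CRTC2 promoter peak in control, 10 with FSK, 12 with TNFα, and 11 with both, against 11.8%, 27.4%, 39.9%, and 29.1% of all genes. None had a promoter p65 peak in any library, against 0.0915%, 0.586%, 0.627%, and 1.01% of genes. H3AcK27 lay at 16 or 17 of the promoters, where 51.7%, 47%, 51.4%, and 49.1% of all genes had it. Pparg, the partner of C/EBPα in fat cells, had CRTC2 at 12.8 with FSK and 13.8 with both, and H3AcK27 at 11.2 normalized tags in control, 24.4 with FSK, 100 with TNFα, and 31.1 with both.

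Of 18 genes known as C/EBP targets, 4, 7, 6, and 6 had a CRTC2 promoter peak in control, FSK, TNFα, and both, against 11.8%, 27.4%, 39.9%, and 29.1% of all genes, so that with TNFα the targets' share, 33.3%, was below that of all genes. A p65 promoter peak was listed for 0, 2, 2, and 6 of them, against 0.0915%, 0.586%, 0.627%, and 1.01% of genes, and 12 of the 18 had none in any library. Fabp4, the fatty acid carrier of adipocytes, had both with FSK, at 8.52 for CRTC2 and 12 for p65. Hp, which encodes haptoglobin, had both with FSK (14.0 and 14.8) and with both treatments (15.4 and 19.5). Lcn2, which encodes lipocalin 2, had both with TNFα (45.0 and 16) and with both treatments (36.5 and 46.9), and its H3AcK27 was 390 in control against 1121 with TNFα. Sik2, a kinase that holds CRTCs in the cytoplasm, had CRTC2 at 13.4, 21.2, and 29.9 in the 3 treated libraries and no p65.

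**Figure D4:**
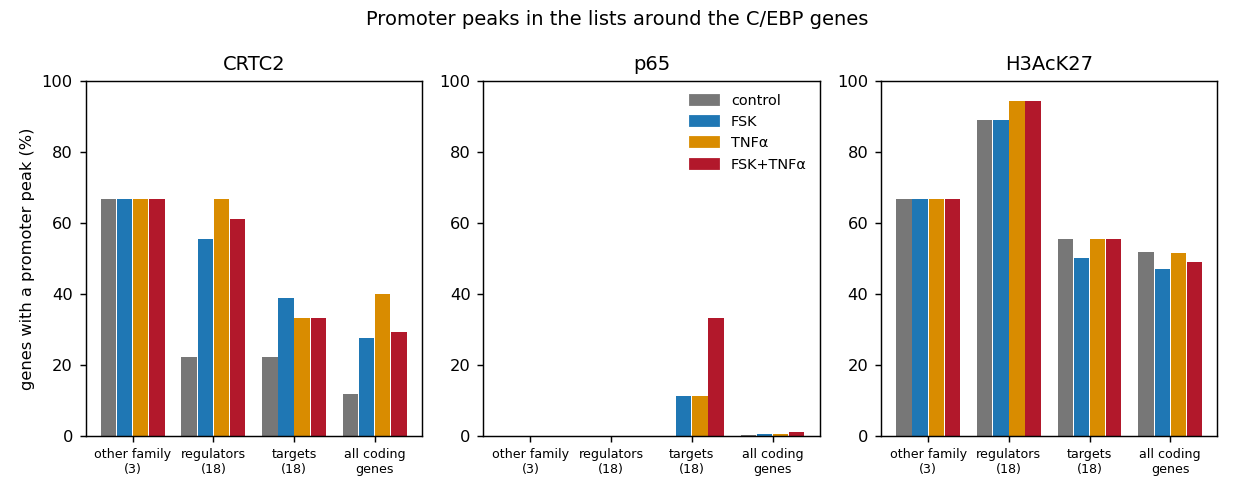
Percent of genes with a promoter peak of CRTC2, p65, or H3AcK27, by list and treatment (1 library per bar; the number of genes in each list is in brackets). Promoter p65 reaches 6 of 18 targets with both treatments and none of the regulators or of the genes listed as other family, where 1.01% of all genes have it. The contrast depends on the window: from 5 kb upstream to the gene end, 6 regulators and 7 targets have p65 with both treatments.

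The genes most like each member were those at the smallest distance over 12 values, 1 for each list: log2 of 1 plus the summed normalized tags in the gene body and 5 kb on either side. For Cebpd they were Bysl (distance 0.97), Gm49333 (1.06), and Slc25a25 (1.13), where the median over 21836 genes was 11.7. Bysl had CRTC2 sums of 0, 81.5, 56.7, and 71.8, beside 0, 96.7, 45.0, and 66.3 for Cebpd. For Cebpb they were Csgalnact1 (1.61) and the overlapping genes Ugt1a7c (1.61) and Ugt1a8 (1.85). For Cebpg they were Zfp609 (0.81), March9 (0.84), and Rab22a (1.07). For Cebpa, where 11 of the 12 values were 0 and TNFα H3AcK27 stood at 39.0, they were Hdac11, Trat1, and Milr1, which likewise had that 1 value alone, and the likeness says little.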

How the data were processed

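Coordinates follow mm10 (GRCm38), the build named in the submitters' processing notes, which also name STAR and HOMER without versions. The authors called peaks in each library with HOMER and deposited the lists. As signal, the authors deposited tag numbers of each peak normalized to 10000000 per library, here called normalized tags, with those of the input. The deposited score counts at most 1 tag per position. The deposited fold values are ratios to the input or to the surrounding 10 kb, kept at 4-fold or more, with deposited p-values of 0.0001 or less. The depth of each library comes from the headers, and a shallower library can miss weaker peaks.

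Genes and start sites are from GENCODE mouse release 21. Promoters run from 1000 bp before a start site to 100 bp after it, peaks were shared at 1 bp of overlap, and motifs were matched in 200 bp around a locus midpoint. Tags were recovered from the scaled values and library totals. Python 3.11.15, numpy 2.4.6, scipy 1.17.1, and pysam 0.24.0 were used, and the code was tested on simulated lists. The members, gene lists, and alternatives were chosen with earlier results of these data known. Named genes were the members, listed genes with promoter CRTC2 and p65 in the same treatment, Sik2, Pparg, the 3 genes most like each member, and the nearest other coding start site of a distal locus. The 2 inputs have no list here. The sequence of 1 locus is not reported here.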

Additional observations from a re-analysis of the deposited data

Results flagged for a closer look

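At the Cebpb start site the log2 change in H3AcK27 with FSK had opposite signs without and with TNFα, but the second change lay within counting error of 0. Per kb of region it was 0.12 without TNFα and -0.040 with it (-0.093 to 0.012), and over the joined span 0.17 and -0.0062 (-0.058 to 0.046). Relative to the median of all genes the second span value was 0.14. At the Cebpg start site the log2 change per kb with TNFα was 0.38 without FSK and -0.056 with it (-0.24 to 0.14), while over the joined span both were above 0, at 0.54 and 0.34 (0.16 to 0.53). Each change rests on 1 library against another, and neither difference was tested.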

How the results depend on the processing

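No paired analysis was possible because each combination had 1 library, and for the same reason no library could be left out. Of 158 recomputed values, 104 stayed within the counting interval or within 1.5 times a count. Within 50 kb of the genes, CRTC2 peaks numbered 4, 6, and 7 with FSK, TNFα, and both, p65 peaks 0, 1, 2, and 0 in the order control, FSK, TNFα, and both, H3AcK27 regions 26 in control and 20 with FSK, and overlapping CRTC2 and p65 loci 0. With peaks of at least 8-fold over input, there were 8 CRTC2 peaks with FSK and 10 with both, p65 peaks 1 with FSK, and H3AcK27 regions 14, 18, 16, and 12. In 400 bp, 14 loci held a CRE core and 7 an AP1 motif. From 5 kb upstream to the gene end, p65 lay at 2, 1, and 6 regulators with FSK, TNFα, and both, and at 4, 2, and 7 targets. The share of all genes with p65 in this wider window is not given here, so these counts have no background. With a pseudocount of 10, Cebpb shared 1 of its 3 closest genes. Lists of equal size, and midpoints within 100 bp, moved no count by over 1.5 times.

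Log2 ratios of start-site H3AcK27 to control depended on width. Divided by the median of all genes, they were 0.14 (TNFα) and 0.072 (both) for Cebpb, and 0.23 (TNFα) and -0.17 (both) for Cebpd. As tags not divided by width they were 0.25 (Cebpb, both), 0.70, 0.42, and 0.75 (Cebpd with FSK, TNFα, and both), and 0.54 and 0.22 (Cebpg with TNFα and both). Over the joined span, an alternative chosen after seeing the data, they were 0.25 (Cebpb, both), 0.60, 0.42, and 0.65 (Cebpd), and 0.54 and 0.22 (Cebpg). CRTC2 at the Cebpd start site gave a log2 ratio of 0.41 for both over TNFα after division by the median of shared peaks, and -1.06 for TNFα over FSK by positions. Counting positions, also chosen after seeing the data for the distal loci, reversed p65 at the Cebpb distal region to -0.38 (FSK) and -0.10 (TNFα) over control. That alternative counts each position once, and the cause of the repeated tags was not tested.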
